A study of Saccharomyces cerevisiae with 3 samples.

Results

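The genes described here encode the subunits of the 3 nuclear RNA polymerases of budding yeast and the dedicated initiation factors of RNA polymerase I (Pol I) and RNA polymerase III (Pol III). They were chosen by gene symbol from the composition of these complexes, and all 47 were found among the 6218 genes on the arrays. They comprise 31 subunit genes and 16 factor genes. Of the subunit genes, 7 belong to Pol I alone, 2 to Pol I and Pol III, 10 to Pol III alone, 7 to RNA polymerase II (Pol II) alone, and 5 to all 3 enzymes. The factor genes are 8 for Pol I and 8 for Pol III.

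The samples were 3 harvests of a diploid SK1 strain deleted for *SUM1* (Δ*sum1*), the repressor of mid-sporulation genes. The first was taken at 6 h of incubation in SPM, an acetate medium without a nitrogen source in which yeast sporulates, and the others 20 min and 40 min after part of that culture was moved to YPD, a rich glucose medium. Each harvest was labeled with Cy5 and hybridized to 1 array against one Cy3-labeled RNA of wild-type diploid SK1 cells growing in YPA, a rich acetate medium. A log2 ratio is log2 of Cy5 over Cy3, so a value above 0 is a higher level in Δ*sum1* cells than in growing wild-type cells. The channel labels and scanner headers were followed for the dyes, since the protocol text swaps them. A change is the difference in log2 ratio, YPD minus 6 h SPM, and genes were called higher or lower at a change of at least 1.5-fold (0.585 on the log2 scale). With 1 array per time point there is no test, and each error is the SD between the 2 spots of a gene, which share one RNA, one labeling and one slide. The time, the medium and the slide cannot be told apart, because a culture left in SPM for the extra minutes was not analysed here.

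Pol I makes the large ribosomal RNA, Pol III makes 5S ribosomal RNA, transfer RNAs and other small RNAs, and Pol II makes messenger RNA. The enzymes share a common architecture: some subunits are identical in all 3, some are shared by Pol I and Pol III, and others are enzyme-specific versions of one ancestral subunit. In yeast, transcription by Pol I and Pol III is known to be curtailed when nutrients run out and restored when they return. The arrays measured cDNA primed with oligo-dT, that is messenger RNA of the polymerase genes, and not the products or the activity of Pol I and Pol III. Because each array was centered on its own median, a change in total messenger RNA per cell would not be seen.

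After the transfer to YPD, the messenger RNAs of Pol I, Pol III and shared subunits were far higher than at 6 h SPM, and those of the subunits specific to Pol II much less so. Of the 47 genes, 30 were higher by at least 1.5-fold at 20 min, where 26.4% of all 6161 genes measured were, and 3 were lower, where 39.2% of all genes were. At 40 min 31 were higher and 7 were lower, beside 27.1% and 42.5% of all genes. The 30 genes higher at 20 min were all higher at 40 min as well, and the 3 lower genes, *TFC8*, *TFC6* and *RRN5*, were lower at both times, although for *RRN5* only 1 of 10 other settings kept the call at 40 min. Subunits made up most of the calls, with 26 of 31 higher at 20 min and none lower, whereas 4 of 16 factor genes were higher and 3 were lower. Where both spots of a gene had to pass the limit, 29 genes were higher and 3 lower at 20 min, beside 24.1% and 35.8% of all genes, and 30 were higher and 4 lower at 40 min, beside 24.7% and 38.9%. The 47 genes had a median change of 2.00 at 20 min and 1.83 at 40 min, while that of all genes was -0.26 and -0.33.

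By class, the median change at 20 and 40 min was 4.14 and 4.10 for the 7 Pol I subunits, 3.65 and 3.74 for the 5 subunits of all 3 polymerases, and 2.31 and 2.14 for the 10 Pol III subunits. It was 0.58 and 0.67 for the 7 Pol II subunits, 0.17 and 0.15 for the Pol I factors, and -0.26 and -0.60 for the Pol III factors. Relative to the all-gene median the Pol III factors changed by 0.0027 and -0.27. The size of these changes depended on the floor, the lowest signal a spot was allowed before the ratio was taken. The array median was recomputed under each floor, so genes well above a floor shifted too. With the mean of the buffer spots as the floor, the median change of all genes was -0.51 at 20 min and -0.50 at 40 min. *RPB2*, whose signals lay above the buffer means, went from 0.58 to 0.012 at 20 min. The class medians at 20 and 40 min were then 3.25 and 2.88 for Pol I and 1.88 and 1.51 for Pol III. They were 3.05 and 3.04 for the subunits of all 3 polymerases, and 0.012 and 0.019 for Pol II. With spots under the floor left out instead, they were 3.94 and 3.91 for Pol I and 2.24 and 2.16 for Pol III.

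**Figure D1:**
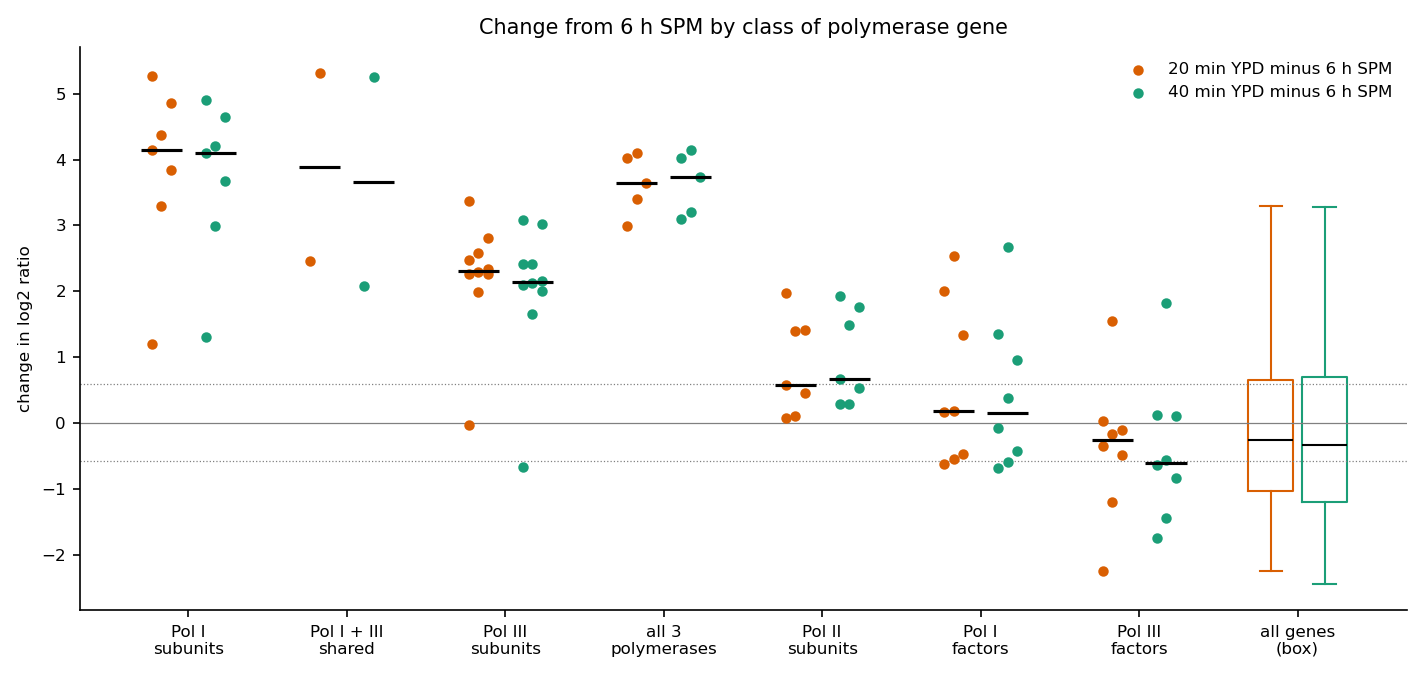
Change in log2 ratio from 6 h SPM to 20 min (orange) and 40 min (green) in YPD. Each point is a gene, black bars are class medians, dotted lines mark 1.5-fold, and the boxes give the quartiles of all 6161 genes measured with whiskers at the 5th and 95th percentiles. The points of the subunits of all 3 polymerases lie above all those of the Pol II subunits at both times, and the factors lie on both sides of 0.

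Across the series the median signal of the gene spots after background subtraction was 1616 to 4280 in Cy5 and 2811 to 3939 in Cy3, and duplicate spots had a pooled SD of 0.15 to 0.19 for a log2 ratio. *SUM1* itself, the deleted gene, stood at -1.76, -1.37 and -1.64 on the 3 arrays in order of time, below the reference but with Cy5 signals above the floor, so its signal was not at the lower limit in the samples labeled as deleted. Of 10 sporulation markers, 9 were higher than the reference by at least 1.5-fold at 6 h, where 31.2% of all genes were. Of 12 markers of haploid or mating cells 9 were higher at 6 h, 8 at 20 min and 10 at 40 min, and their median log2 ratios were 1.07, 1.61 and 1.89. Their part in the values of the polymerase genes was not tested.

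Before the transfer, the polymerase genes were not low as a group in their log2 ratios. In Cy5 alone, relative to the array median, their median at 6 h was -0.70. At 6 h SPM their median log2 ratio was 0.00, 13 of 47 were at least 1.5-fold above the growing wild-type reference, where 31.2% of all genes were, and 11 were at least 1.5-fold below it, where 28.9% of all genes were. The class medians at 6 h were -0.48 for Pol I subunits, 0.22 for Pol III subunits, -0.15 for the subunits of all 3 polymerases and 0.45 for Pol II subunits. All 6 genes for the largest and the second largest subunit, in all 3 enzymes, were at least 1.5-fold below the reference at 6 h. The 11 low genes also included *RPC37*, *BRF1*, *RPB3*, *RPC19* and *UAF30*, at -2.81, -1.04, -0.89, -0.72 and -0.68. By the first spot alone *RPA190* was at -0.48. With the buffer mean as the floor *RET1*, *RPC19* and *UAF30* were no longer past the limit. In Cy5 alone, relative to the array median, *RET1*, *RPB2*, *RPO21* and *BRF1* were at -0.15, -0.043, 0.29 and 0.27.

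In YPD, most subunit genes stood above the level of growing wild-type cells, and the factor genes as a group did not. The median log2 ratio of the 31 subunit genes was 3.08 at 20 min and 3.09 at 40 min, and 26 of them at 20 min and 27 at 40 min were at least 1.5-fold above the reference, beside 36.7% and 35.1% of all genes. The median of the 16 factor genes was -0.10 at 20 min and -0.18 at 40 min. The 7 Pol I subunits had a median log2 ratio of 4.22 at 20 min, which is 18.6-fold above wild-type cells in YPA, and 4.12 at 40 min. Only *RPB2* and *RPC37* among the subunit genes were at least 1.5-fold below the reference in YPD, at both times, where 34.9% and 36.3% of all genes were. Between 20 and 40 min little moved. Of the 47 genes, 1 was at least 1.5-fold higher at 40 min than at 20 min and 3 were lower, beside 7.95% and 12.3% of all genes, and those 4 genes were *RPC17*, *RPC53*, *RRN7* and *RPC37*.

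**Figure D2:**
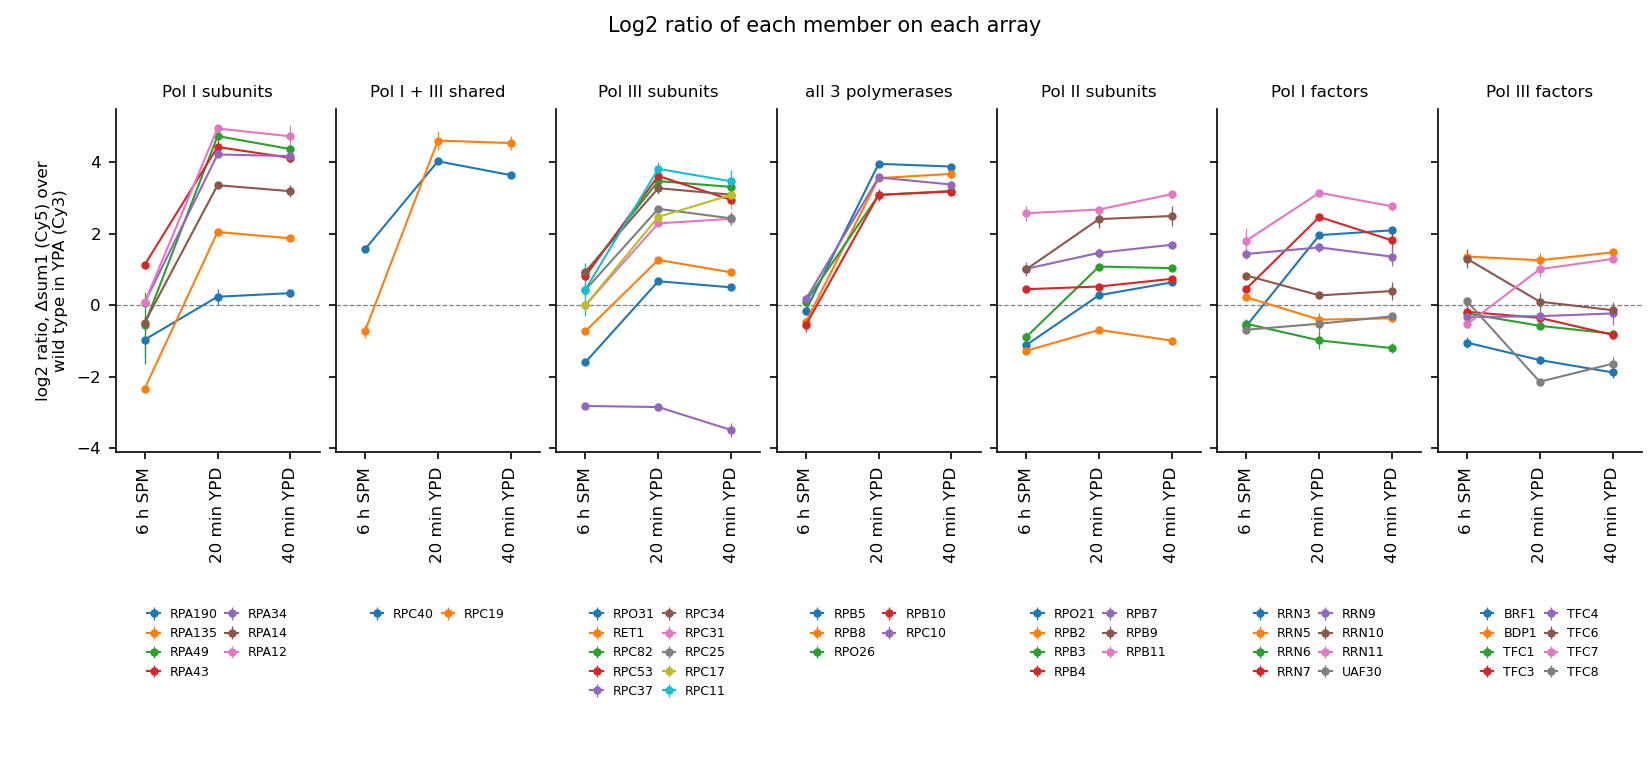
Log2 ratio of Δ*sum1* cells (Cy5) over wild-type cells in YPA (Cy3) for each of the 47 genes on the 3 arrays, 1 panel per class. Points are means of the 2 spots of a gene, bars the SD between them, and the dashed line is the reference level. Most lines of the Pol I, Pol III and shared subunits climb to between 2 and 5 by 20 min and then stay level, and *RPC37* remains near -3.

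The catalytic core of each polymerase is formed by its largest and second largest subunits. *RPA135*, the second largest subunit of Pol I, had log2 ratios of -2.33 ± 0.12 at 6 h SPM, 2.05 ± 0.12 at 20 min and 1.87 ± 0.05 at 40 min. It was the lowest Pol I gene at 6 h, and its changes were 4.38 ± 0.24 (20.8-fold) and 4.21 ± 0.06 (18.5-fold). *RPA190*, the largest Pol I subunit, had log2 ratios of -0.96 ± 0.68, 0.24 ± 0.22 and 0.34 ± 0.11 at the same times. Its changes of 1.20 ± 0.90 and 1.30 ± 0.57 were the smallest of Pol I, and its spots disagreed: by the first spot alone the change at 20 min was 0.56, just under the limit for a call, and by the second 1.84. *RPA190* and *RPA43* are divergently transcribed neighbors in the R64 annotation, the only adjacent pair among the 47 genes, and *RPA43* changed by 3.30 ± 0.16 and 2.99 ± 0.06.

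The core genes of Pol III moved by similar amounts to each other. *RPO31*, its largest subunit, had log2 ratios of -1.59 ± 0.01, 0.67 ± 0.04 and 0.50 ± 0.03 at 6 h, 20 min and 40 min, with changes of 2.26 ± 0.05 and 2.10 ± 0.04. *RET1*, its second largest subunit, had log2 ratios of -0.73 ± 0.07, 1.27 ± 0.01 and 0.92 ± 0.08, with changes of 2.00 ± 0.05 and 1.65 ± 0.01. In Pol II the core genes differed. *RPO21*, whose product carries the heptad-repeat tail, had log2 ratios of -1.11 ± 0.19, 0.28 ± 0.05 and 0.64 ± 0.06, with changes of 1.40 ± 0.14 and 1.76 ± 0.25. Its Cy5 signals were 5244, 5175 and 5548, against Cy3 signals of 11939, 5466 and 6030. In Cy5 alone, relative to the array median, *RPO21* changed by 0.62 at 20 min. *RPB2* had log2 ratios of -1.27 ± 0.06, -0.69 ± 0.01 and -0.99 ± 0.01 and remained below the reference on all 3 arrays. Its change at 20 min, 0.58 ± 0.06, fell just short of the 1.5-fold limit, and its change at 40 min was 0.29 ± 0.05.

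The remaining Pol I subunits all changed by more than *RPA190*. *RPA49* and *RPA34* encode a dimer that resembles the Pol II factor TFIIF. *RPA49* had log2 ratios of -0.54 ± 0.92, 4.73 ± 0.04 and 4.37 ± 0.07, and its change of 5.27 ± 0.96 at 20 min was the highest of Pol I, although its spots differed widely at 6 h. *RPA34* had log2 ratios of 0.07 ± 0.01, 4.22 ± 0.01 and 4.17 ± 0.20, and changed by 4.14 and 4.10. Their Cy5 signals at 20 min were 30183 and 32833, against Cy3 signals of 1459 and 2269 in the wild-type reference.

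*RPA43* and *RPA14* form the stalk of Pol I, to which initiation factors and the nascent RNA bind. *RPA43* had log2 ratios of 1.13 ± 0.02, 4.42 ± 0.18 and 4.12 ± 0.08 and was the only Pol I subunit above the reference by 1.5-fold at 6 h. *RPA14* had log2 ratios of -0.48 ± 0.15, 3.36 ± 0.09 and 3.19 ± 0.16, with changes of 3.84 ± 0.06 and 3.67 ± 0.01. *RPA12*, a zinc ribbon subunit needed for RNA cleavage, had a Cy5 signal of 694 at 6 h SPM, close to the floor of 656, and of 13746 at 20 min and 7085 at 40 min. The Cy3 spots of this gene never exceeded the floor, and its changes of 4.86 and 4.64 depend on the floors: with the buffer mean in their place they came to 3.56 and 2.66.

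*RPC40* and *RPC19* encode the alpha-like pair, the platform on which Pol I and Pol III are assembled. *RPC19* had log2 ratios of -0.72 ± 0.18 at 6 h, 4.60 ± 0.26 at 20 min and 4.54 ± 0.21 at 40 min. Its changes of 5.32 ± 0.08 (40.0-fold) and 5.25 ± 0.39 (38.2-fold) were the largest among the 47 genes at both times, and 99.8% of all genes changed less at 20 min. The rank depends on the setting, since *RPC19* led *RPA49* (5.27 at 20 min) by less than the SD between spots. With the buffer mean as the floor *RPC19* changed by 4.03 and 3.50 and *RPA49* by 4.29 and 3.67. *RPC40* already stood at 1.56 ± 0.09 at 6 h and had log2 ratios of 4.03 ± 0.03 and 3.64 ± 0.04 in YPD, with changes of 2.46 ± 0.05 and 2.07 ± 0.04. The partners thus reached log2 ratios less than 1 apart in YPD although they were more than 2 apart before it.

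Of the 10 subunits specific to Pol III, 9 were higher at both times, with changes at 20 min from 2.00 for *RET1* to 3.37 for *RPC11*. *RPC82*, *RPC34* and *RPC31* encode the trimer with which Pol III opens promoters and contacts TFIIIB, and their changes lay close together, at 2.58, 2.33 and 2.29 at 20 min and 2.42, 2.15 and 2.42 at 40 min. *RPC25* and *RPC17* encode the stalk. *RPC25* had log2 ratios of 0.43 ± 0.20, 2.70 ± 0.02 and 2.43 ± 0.18, with changes of 2.26 ± 0.22 and 2.00 ± 0.02. *RPC17* was under the floor in both channels at 6 h and in Cy3 on all arrays, so it has no ratio at 6 h, and its calculated changes of 2.47 and 3.08 rest on the floors. Its Cy5 signal was 2479 at 20 min and 2276 at 40 min, well over floors of 397 and 268.

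*RPC11*, which the enzyme needs for RNA cleavage and for ending and restarting transcription, had log2 ratios of 0.44 ± 0.73, 3.81 ± 0.20 and 3.46 ± 0.31, with changes of 3.37 ± 0.53 and 3.02 ± 1.03. *RPC53* and *RPC37* encode a dimer that corresponds to *RPA49* and *RPA34* in Pol I and takes part in termination. *RPC53* had log2 ratios of 0.81 ± 0.01, 3.62 ± 0.17 and 2.95 ± 0.04 and changed by 2.80 ± 0.15 and 2.13 ± 0.06. *RPC37* went another way than its partner and than every other Pol III subunit. Its log2 ratios were -2.81 ± 0.09, -2.84 ± 0.11 and -3.49 ± 0.19, the lowest of the 47 genes on all 3 arrays.

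The signals behind the *RPC37* values were 1106, 430 and 316 in Cy5, against 8172, 3963 and 5996 in Cy3, so the reference was bright and the Δ*sum1* samples lay near the floor. Its changes were -0.03 ± 0.20 at 20 min and -0.67 ± 0.10 at 40 min. The second of these was past 1.5-fold here but not in 5 of 10 other settings, among them loess and the Cy5 channel alone. The value at 20 min also depended on the setting, since 1 Cy5 spot was under the floor there. It was -0.72 in Cy5 alone and 0.42 with the buffer mean as the floor. In the corresponding dimer of Pol I, both genes were called higher.

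The 5 subunits that all 3 polymerases contain behaved as the Pol I and Pol III subunits did. *RPB5*, which lies in the jaw of the enzyme, had log2 ratios of -0.15 ± 0.11, 3.95 ± 0.04 and 3.88 ± 0.02, and its change of 4.10 ± 0.15 at 20 min was the highest of the 5. *RPO26*, an assembly subunit with a bacterial relative (omega), had log2 ratios of 0.10 ± 0.05, 3.08 ± 0.07 and 3.20 ± 0.07, and its change of 2.99 ± 0.02 was the lowest. *RPB8* and the genes of the small zinc-binding subunits, *RPB10* and *RPC10*, lay between them, with changes of 4.03, 3.65 and 3.41 at 20 min and 4.15, 3.74 and 3.21 at 40 min. The group was uniform: at 6 h the log2 ratios spanned -0.56 to 0.16, at 20 min they spanned 3.08 to 3.95, and none of their spots lay under a floor on any array.

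Of the 7 subunits specific to Pol II, 3 were higher at 20 min, namely *RPB3*, *RPB9* and *RPO21*, and *RPB7* joined them at 40 min. *RPB3*, which pairs with *RPB11* as the counterpart of the alpha-like pair, had log2 ratios of -0.89 ± 0.13, 1.08 ± 0.06 and 1.04 ± 0.01, and its change of 1.97 ± 0.07 at 20 min was the highest of Pol II. *RPB11* was at 2.57 ± 0.21 at 6 h, the highest ratio of the 47 genes there, and at 2.68 ± 0.03 and 3.11 ± 0.10 in YPD, so it changed by only 0.10 ± 0.17 and 0.54 ± 0.30. *RPB9*, which takes part in start site selection and fidelity, had log2 ratios of 1.00 ± 0.08, 2.41 ± 0.24 and 2.50 ± 0.27, with changes of 1.41 ± 0.32 and 1.49 ± 0.19.

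*RPB4* and *RPB7* form the stalk of Pol II. *RPB4* had log2 ratios of 0.45 ± 0.10, 0.52 ± 0.06 and 0.74 ± 0.04, and its change of 0.07 ± 0.04 at 20 min was the lowest of Pol II. *RPB7* had log2 ratios of 1.02 ± 0.19, 1.47 ± 0.14 and 1.69 ± 0.02, and its changes of 0.45 ± 0.05 and 0.67 ± 0.17 straddled the limit. With the buffer mean as the floor *RPB7* changed by 0.019 at 40 min, when the median change of all genes was -0.50. The small changes of *RPB2*, *RPB4*, *RPB7* and *RPB11* had settings in which the sign turned at 1 time or both.

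Comparing counterparts position by position shows the contrast within the shared architecture. At 7 positions that all 3 enzymes fill, the Pol III gene changed more than the Pol II gene at all 7, at both times, and the Pol I gene changed more than the Pol II gene at 6. These counts include *RPC17* and *RPA12*, whose changes rest on the floors. With spots under the floor left out, the Pol III gene changed more at 6 of 6 positions and the Pol I gene at 5 of 6. The exception was the largest subunit, where *RPA190* minus *RPO21* was -0.20 at 20 min and -0.45 at 40 min. The first of these is smaller than the pooled SD of 0.23 between spots for a change at 20 min. With the second spot only the difference was 0.54 and 0.12, and at 20 min it was 0.096 with loess and 0.18 in Cy5 alone. The differences between Pol I and Pol II genes at the other positions at 20 min were 3.80 for the second largest subunit, 3.46 for the zinc ribbon subunit, 2.85 and 3.77 for the stalk, and 0.49 and 5.22 for the alpha-like pair. *RPC40* and *RPB3* thus differed little, and by 0.15 at 40 min, which is less than the pooled SD of 0.24 between spots for a change.

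At the 5 positions where Pol I and Pol III have genes of their own, the Pol I gene changed more at 4, again with the largest subunit as the exception. With normexp background correction in place of subtraction it changed more at 3 of 5 at 20 min, and with spots under the floor left out at 2 of the 3 positions that remained. At the largest subunit, *RPA190* minus *RPO31* was -1.06 at 20 min and -0.79 at 40 min. In the main setting and the 10 others, the Pol III gene changed more than the Pol II gene at every position that could be computed. The 5 subunits of all 3 polymerases and the 7 specific to Pol II did not overlap in their changes: the lowest of the shared genes, *RPO26*, changed by 2.99 and 3.10, against 1.97 and 1.93 for the highest Pol II gene, *RPB3*. With the buffer mean as the floor, this gap at 40 min shrank to 1.35 for *RPC10*, then the lowest shared gene, against 1.26 for *RPB3*.

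**Figure D3:**
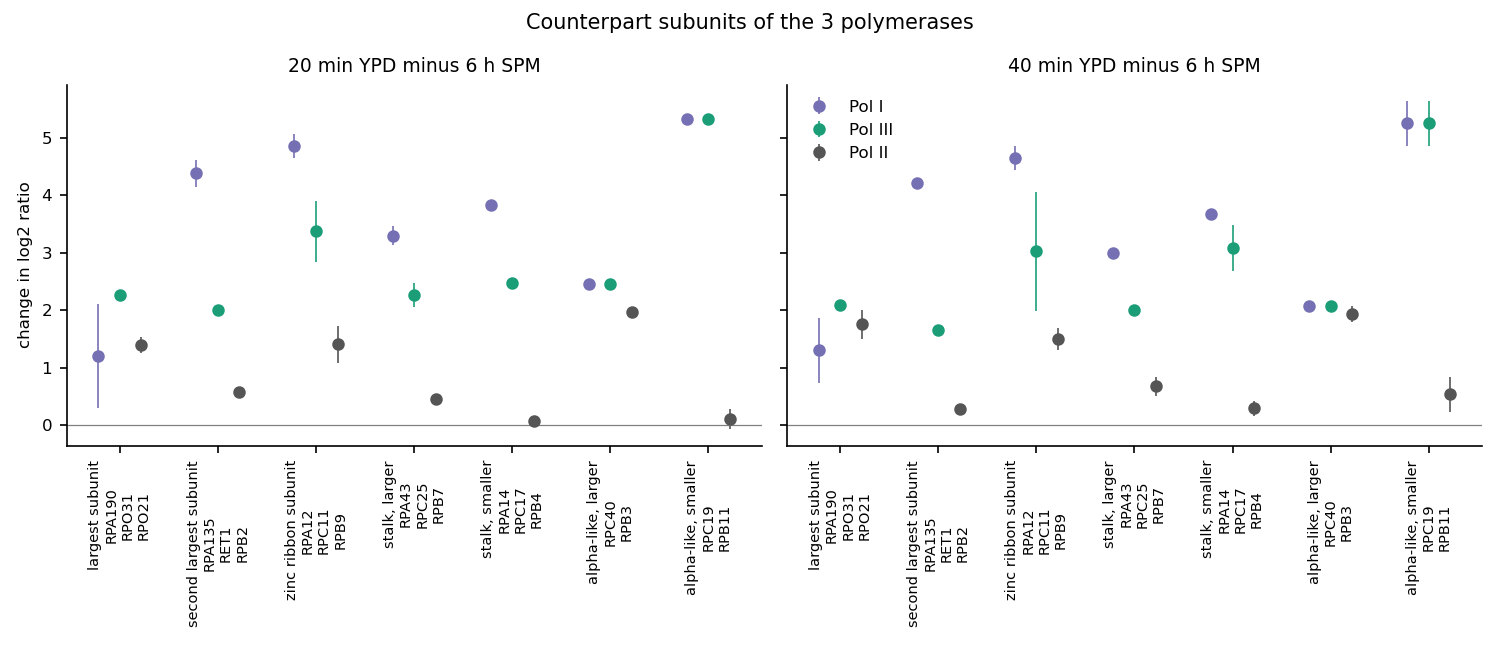
Change in log2 ratio from 6 h SPM at 7 structural positions, for the gene of Pol I (purple), Pol III (green) and Pol II (grey), at 20 min on the left and 40 min on the right. Bars are the SD between the 2 spots of a gene, and *RPC40* and *RPC19* serve both Pol I and Pol III. The green points lie above the grey ones at each position, and the purple ones do so except at the largest subunit.

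The Pol I initiation factors were split. *RRN3*, which binds the Pol I stalk and makes the enzyme competent to initiate, was at -0.57 ± 0.21, 1.96 ± 0.04 and 2.10 ± 0.05 on the log2 ratio scale, and it changed by 2.54 ± 0.16 (5.80-fold) and 2.67 ± 0.15 (6.37-fold), the most among the 16 factor genes. The core factor, which places Pol I at the promoter, consists of the products of *RRN6*, *RRN7* and *RRN11*. *RRN7* changed by 2.00 and 1.34 and *RRN11* by 1.33 and 0.95, both higher at both times, whereas *RRN6* changed by -0.46 and -0.68, the second past the limit for a lower call but not in 3 of the other settings. With the buffer mean as the floor *RRN7* and *RRN11* changed by 0.17 and 0.073 at 40 min, and *RRN6* by -1.04 at 20 min. The median change of all genes in that setting was -0.51 at 20 min and -0.50 at 40 min. *RRN11* also lost its call at 40 min with normexp background correction.

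The upstream activating factor keeps ribosomal DNA promoters active, and 4 of its genes were among the 47. None was called higher, beside 26.4% of all genes at 20 min and 27.1% at 40 min. So few genes cannot be set apart from these shares. *RRN9* changed by 0.18 and -0.08, *RRN10* by -0.55 and -0.43, and *UAF30* by 0.17 and 0.38. With the buffer mean as the floor *RRN10* changed by -0.96 at 20 min and *RRN9* by -0.84 at 40 min. All genes then had a median change of -0.51 at 20 min and -0.50 at 40 min. In Cy5 alone *RRN10* changed by -1.37 at 40 min. *RRN5* had log2 ratios of 0.22 ± 0.09, -0.40 ± 0.14 and -0.36 ± 0.09, and its changes of -0.62 ± 0.05 and -0.59 ± 0.18 were the lowest of the Pol I factors at 20 min and only just past the limit. The call was lost in 3 of 10 other settings at 20 min and in 9 of 10 at 40 min, and with the buffer mean as the floor *RRN5* changed by 0.034 and 0.014.

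For Pol III, TFIIIC binds the promoters inside transfer RNA genes and recruits TFIIIB, which in turn recruits the polymerase. Neither of the TFIIIB genes in the set, *BRF1* and *BDP1*, was called higher, beside 26.4% and 27.1% of all genes. *BRF1* had log2 ratios of -1.04 ± 0.14, -1.53 ± 0.10 and -1.88 ± 0.16, below the reference throughout, with changes of -0.49 ± 0.24 and -0.83 ± 0.30. The second of these was past the limit but was -0.50 relative to the median over all genes. *BDP1* had log2 ratios of 1.36 ± 0.08, 1.26 ± 0.21 and 1.48 ± 0.01, with changes of -0.10 ± 0.29 and 0.11 ± 0.09. With the buffer mean as the floor *BRF1* changed by -1.06 and *BDP1* by -0.67 at 20 min. Signals of both genes lay above the buffer means at 6 h and 20 min, and the median change of all genes was then -0.51. In Cy5 alone *BDP1* changed by -0.90 at 40 min.

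The 6 TFIIIC genes ranged from lower to higher. *TFC7* had log2 ratios of -0.53 ± 0.10, 1.01 ± 0.22 and 1.30 ± 0.10, and was the only Pol III factor called higher, with changes of 1.54 ± 0.32 and 1.83. *TFC8* had log2 ratios of 0.12 ± 0.01, -2.14 ± 0.06 and -1.63 ± 0.19, and its changes of -2.25 ± 0.07 and -1.75 ± 0.18 were the most negative of the 47 genes. *TFC6* was at 1.30 ± 0.27, 0.10 ± 0.23 and -0.14 ± 0.18, and changed by -1.20 ± 0.04 and -1.44 ± 0.09. *TFC6* and *TFC8* were called lower in all 10 other settings at both times.

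Of the other TFIIIC genes, *TFC1* changed by -0.35 and -0.57 and *TFC3* by -0.17 and -0.64, the last past the limit here but not in 4 of the other settings. With the buffer mean as the floor *TFC1* changed by -0.92 and -1.24 and *TFC3* by -0.74 and -1.31. Signals of both lay above the buffer means on all 3 arrays, and the median change of all genes was then -0.51 and -0.50. *TFC4* was too dim for a ratio, since its Cy5 spots were under the floor at 6 h and at 20 min. *TFC1* and *TFC3* were below the reference on all 3 arrays. Pairing each subunit with each factor of the same enzyme gives a measure of the distance between subunits and factors. The Pol I subunit changed more in 53 of 56 pairs at 20 min and 54 of 56 at 40 min. The Pol III subunit changed more in 78 of 80 and 74 of 80. The pairs share genes and arrays and are not independent. They also include *RPA12*, *RPC17* and *TFC4*, whose values rest on the floors.

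Genes that work beside these complexes were examined as lists, also counted against the shares of all genes given above. Of 12 other genes of Pol I and Pol III transcription, 8 were higher at 20 min and 8, not all of them the same, at 40 min, 1 was lower at 20 min and 2 at 40 min, and the median change was 1.18 and 0.87. The largest positive change there was that of *CKA1*, a catalytic subunit of casein kinase 2, which phosphorylates parts of the Pol I and Pol III machinery, at 3.35 and 3.58. *MAF1*, the repressor of Pol III that acts when nutrients are scarce, changed most in the other direction, by -2.04 and -2.01, and stood at log2 ratios of 0.58, -1.45 and -1.43. The 7 genes for polymerase assembly and nuclear import had median changes of 0.88 and 1.15, with *NPA3*, a GTPase of assembly, at 2.70 and 2.47 and *IWR1*, an import factor of Pol II, at -1.92 and -2.40.

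The Pol II general factors recruit that enzyme to promoters. Of 17 measured, 4 were higher and 2 lower at 20 min, 5 were higher and 4 lower at 40 min, and the median change was 0.07 and 0.02. For 24 genes of Pol II elongation and the Mediator the counts were 5 higher and 4 lower at 20 min and 6 higher and 4 lower at 40 min, with median changes of 0.11 and -0.05. Genes for the early processing of ribosomal RNA and for ribosomal proteins, in contrast, were higher almost throughout. Of 40 genes of the small subunit processome 39 were higher at 20 min and 38 at 40 min, with median changes of 3.38 and 3.02, and of 132 ribosomal protein genes 127 and 128 were higher, with 3.88 and 4.49.

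These lists differed from the subunit genes in where they began. At 6 h SPM the median log2 ratio was 0.00 for the 31 subunit genes, -0.64 for the small subunit processome and -2.36 for ribosomal proteins, of which 122 of 132 were at least 1.5-fold below the reference. At 40 min the medians were 3.09, 2.76 and 2.21. The 0.00 at 6 h is the value of *RPC17*, which lay under both floors there. The Pol I subunits alone had a median of -0.48 at 6 h, near that of the small subunit processome. In Cy5 alone, relative to the array median, the 6 h medians were -1.42 for Pol I and -1.17 for Pol III subunits. They were -0.85 for the subunits of all 3 polymerases and 0.073 for Pol II subunits. No such median was taken for the processome or the ribosomal proteins. From 20 to 40 min, 58 of 132 ribosomal protein genes were higher by at least 1.5-fold, against 1 of 47 polymerase genes.

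**Figure D4:**
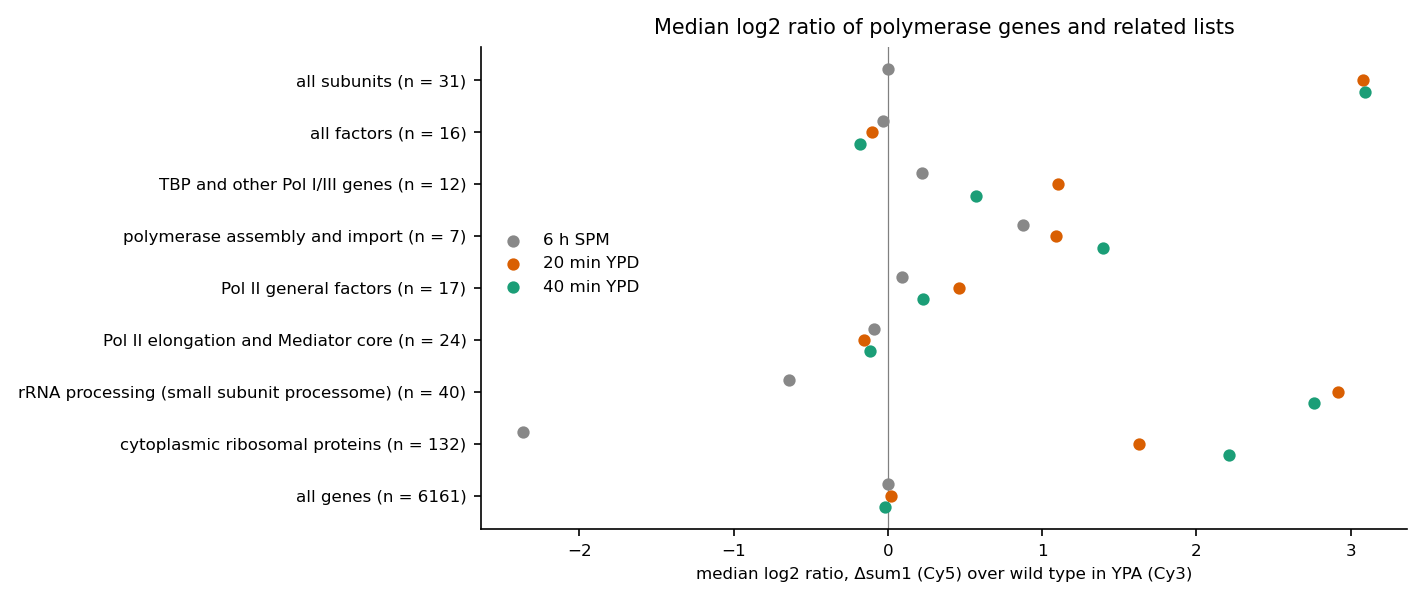
Median log2 ratio of Δ*sum1* cells (Cy5) over wild-type cells in YPA (Cy3), grey for 6 h SPM, orange for 20 min and green for 40 min in YPD, for the polymerase subunit and factor genes, related lists and all genes measured. The subunit genes start at 0.00, the value of *RPC17* under both floors, and end at 3.09. Ribosomal protein genes start at -2.36 and end at 2.21.

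Over the 47 genes, longer genes tended to change less. The Pearson correlation of the change with log2 gene length was -0.36 at 20 min and -0.39 at 40 min (Spearman -0.39 and -0.42), a description over genes that share arrays and fall into classes of different length, such as the long largest subunits. Genes of higher signal at 6 h also changed less at 20 min. The Pearson correlation was -0.49 with log2 Cy5 signal (Spearman -0.51) and -0.33 with log2 Cy3 signal (Spearman -0.35). The Cy5 signal at 6 h enters the change with a minus sign, so a negative correlation with it is partly built in. Neither correlation with signal was computed over all genes. The correlation of the change with the log2 ratio at 6 h was -0.16 and -0.15 (Pearson), over the same 47 genes and with the 6-hour value in both quantities. Over all 6161 genes it was -0.29 and -0.34.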

How the data were processed

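The 47 genes and the lists were chosen with earlier results of these data known. The 3 arrays carry PCR products of each gene in 2 spots. The authors quantified the spots with QuantArray 3, and the deposited scanner files hold, per the file headers, the intensity and background of each spot in each channel, not background-subtracted. The authors' own log2 ratios were deposited as another table, made after background subtraction, a floor, centering on the array median, omission of bad spots and averaging of duplicates. Here the background was subtracted from the intensities, signals under a floor were set to it, log2 Cy5 over Cy3 was taken, the median over gene spots was subtracted, and the 2 spots were averaged without leaving any out. The floors were 656, 397 and 268 for Cy5 in order of time, and 690, 574 and 455 for Cy3. They were recovered from the deposited values, because the buffer spots, which the study names as the floor, have far higher means. The log2 ratios came within 0.001 of the deposited ones for 97.9% to 98.4% of genes, after removal of a constant per array.

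Genes were matched by systematic name to the R64 annotation, in which 5663 of 6218 had an entry. All spots of 57 genes were under both floors, which leaves 6161. All 47 genes are accounted for. Full values are given for the core and counterpart subunits, *RRN3*, *BRF1*, *BDP1* and the extremes of each class at 20 min, and of each other list at most the 2 genes with the largest change. Some further values of single genes were added after they were seen. The functions were tested on simulated data. There was no test, as each time point has 1 array. Alternatives were normexp background correction with an offset of 50 and loess normalization (limma 3.58.1, R 4.3.3), the mean of the buffer spots as the floor, omission of spots under the floor or with a signal-to-noise ratio under 3, the authors' deposited log2 ratios, Cy5 alone, each spot alone, centering on all genes, a 2-fold limit, and both spots past the limit.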

Additional observations from a re-analysis of the deposited data

How the results depend on the processing

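Medians of each class were recomputed in 10 other settings and counts of genes in 12. The number of genes higher by 1.5-fold stayed between 28 and 32 at 20 min and between 27 and 35 at 40 min, against 30 and 31. The fewer genes lower by 1.5-fold, 3 at 20 min and 7 at 40 min, varied more. At 20 min they numbered 5 with normexp, 6 with Cy5 alone and 8 with the buffer floor. At 40 min they numbered 2 with a 2-fold limit, 2 relative to the median over all genes and 4 with both spots past the limit. Of 80 class medians in other settings, 22 of the change at 20 min, 19 of the change at 40 min and 20 of the ratio at 6 h moved by at least the pooled SD between duplicate spots, and no median past the limit changed sign.

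With the mean of the buffer spots as the floor, the median changes at 20 and 40 min were 1.40 and 1.06 for all 47 genes, 3.25 and 2.88 for Pol I, 2.96 and 2.45 for the Pol I and III shared subunits, 1.88 and 1.51 for Pol III, 3.05 and 3.04 for the subunits of all 3 polymerases, 0.012 and 0.019 for Pol II, and -0.83 and -0.92 for the Pol III factors. The medians at 6 h were then 0.82 for the Pol I and III shared subunits, -0.077 for the Pol I factors, -0.14 for Pol I, 0.67 for Pol II, 0.020 for the Pol III factors and -0.14 for Pol III. The buffer means lie above the recovered floors, so more spots sit at the floor by construction. Each array was also centered again, and the median change of all genes was then -0.51 at 20 min and -0.50 at 40 min. The -0.14 of Pol I and Pol III at 6 h is also the value of *RPA14*, *RPC19* and *RRN3*. Signals of these genes lay under the buffer means in both channels, so that value is set by the floors and carries no information on the genes.

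Relative to the median over all genes, which moved by -0.26 at 20 min and -0.33 at 40 min, the changes were 2.26 and 2.16 for the 47 genes, 4.40 and 4.43 for Pol I, 4.15 and 4.00 for the Pol I and III shared subunits, 2.57 and 2.47 for Pol III, 3.91 and 4.07 for the subunits of all 3 polymerases, 0.84 and 1.01 for Pol II, 0.44 and 0.48 for the Pol I factors, and 0.0027 and -0.27 for the Pol III factors.

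In the Cy5 channel alone, a signal relative to the array median and not a ratio, the changes were 4.55 for Pol I, -0.55 for the Pol III factors and 2.62 for Pol III at 20 min, and 1.43 for Pol II, 2.63 for Pol III and 4.00 for the subunits of all 3 polymerases at 40 min. At 6 h it gave -0.70 for the 47 genes, -1.42 for Pol I, -0.55 for the Pol I and III shared subunits, -1.17 for Pol III, -0.85 for the subunits of all 3 polymerases, 0.073 for Pol II, -0.89 for the Pol I factors and 0.30 for the Pol III factors. With normexp, the Pol III factors changed by -0.50 at 20 min and the Pol I factors stood at 0.52 at 6 h. With loess, the Pol I factors changed by 0.40 and 0.42 and the Pol III factors by -0.50 at 20 min. With the first spot only, the subunits of all 3 polymerases changed by 3.91 at 20 min, and at 6 h Pol I stood at 0.081 and Pol III at 0.043. The median of Pol III at 6 h was 0.0009 with the deposited log2 ratios, 0.0004 without spots under the floor, and 0.033 when spots of low signal-to-noise ratio were dropped. The cause of these shifts was not tested.

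The order of the Pol I, Pol III and Pol II medians was the same in the main setting and in the 10 others at both times. With the buffer floor at 40 min the subunits of all 3 polymerases had a higher median than Pol I. Of the 47 genes, 6 had a spot under a floor on some array, and 6 had a Cy5 or Cy3 intensity above 30000. No paired analysis was possible because each time point has 1 array. The number of arrays, 1 for each time point, limits the precision, and so does low signal for *RPC17*, *RPA12* and *TFC4*.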
